A study of Caenorhabditis elegans with 2 samples.

Results

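Chromatin bound by LIR-3, a C. elegans zinc-finger protein of the LIN-26 family, was mapped by chromatin immunoprecipitation and sequencing, and the peaks at autosomal tRNA genes are described here. A peak was taken as a member when its summit in the list called on both replicates together, on chromosomes I to V, lay from 500 bp upstream to 200 bp downstream of the start of a tRNA gene in the Ensembl annotation. This rule chose 283 of 20360 peaks on build ce11. The animals of every sample were L4 hermaphrodites, used whole. Their strain, OP312, has the unc-119(ed3) allele and the insertion wgIs312, from which LIR-3 is made with a GFP-FLAG tag at its C-terminus. They were collected 48 hours after the starved L1 stage and precipitated with an antibody to GFP. There was 1 group with 2 biological replicates. The labels do not say whether the replicates came from separate cultures, nor what the endogenous lir-3 gene contributed, and in whole animals the tissues cannot be told apart.

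The 20360 peaks form a relaxed list, which by design also holds background regions. The submitters used it as input for the irreproducible discovery rate (IDR) procedure, with lists of 17311 and 20601 peaks from replicates 1 and 2. This procedure is meant to keep peaks that rank alike in replicates. Their optimal IDR list holds 552 peaks. The comparison below is between autosomal tRNA peaks that overlapped an IDR peak by at least 1 bp and those that did not. Each peak has a signal, a score assigned by the authors on a scale that is not stated, which ranks peaks within 1 list. No IDR peak had a pooled signal under 88.9. The gap in pooled signal between both kinds of peak thus follows from how the list was made. Each autosomal tRNA peak that was itself an IDR peak had at least 89.5, and each that overlapped none had at most 88.4. The split between them thus followed pooled signal, and whether it followed replicate agreement was not tested. The lists hold no read counts, so depth is unknown, and 95% intervals cover counting error over peaks only. An immunoprecipitation from untagged animals was not analysed here.

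Transfer RNA genes are transcribed by RNA polymerase III from a promoter inside the gene. TFIIIC binds 2 short internal elements, the A box near the start and the B box near the end, and places TFIIIB upstream, which recruits the polymerase. Transcription stops at a run of T just after the gene. In C. elegans many tRNA genes are exact copies of one another, dispersed over the chromosomes and often lying in introns of protein-coding genes.

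To show how like-sequenced genes differed in their peaks, 4 copies of the proline tRNA gene are printed with the 50 bases before and the 40 bases after the gene, 5′ to 3′ on the strand of the gene, from build WBcel235, whose coordinates are those of ce11. Capitals mark the A box, the B box and, after the gene, runs of 4 or more T. The gene itself is the same in all 4 loci and in 24 copies in the genome, so the printed sequences differ in the flanks alone. Each of the 4 peaks also had another tRNA gene start in its window, of T23F1.t1, W09D6.t1, T22F3.t4 and ZK970.t3 in printed order. The signal of these peaks thus cannot be assigned to the printed copy alone. The first pair overlapped an IDR peak and the second pair did not. The loci are V:15465185-15465346 (minus strand), III:11066808-11066969 (minus strand), V:3582270-3582431 (plus strand) and II:10304961-10305122 (plus strand).
T23F1.t2: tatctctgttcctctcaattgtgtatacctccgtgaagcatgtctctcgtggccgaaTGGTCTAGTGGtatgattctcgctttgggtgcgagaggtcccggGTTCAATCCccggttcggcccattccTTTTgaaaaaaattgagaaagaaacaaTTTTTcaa
W09D6.t2: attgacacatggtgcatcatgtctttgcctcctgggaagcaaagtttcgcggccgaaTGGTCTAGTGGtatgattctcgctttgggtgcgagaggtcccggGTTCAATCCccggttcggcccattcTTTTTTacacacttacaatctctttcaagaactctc
T22F3.t1: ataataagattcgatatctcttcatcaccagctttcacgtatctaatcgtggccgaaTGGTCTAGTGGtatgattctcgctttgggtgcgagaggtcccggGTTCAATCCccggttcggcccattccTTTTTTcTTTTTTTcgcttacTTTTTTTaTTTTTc
ZK970.t2: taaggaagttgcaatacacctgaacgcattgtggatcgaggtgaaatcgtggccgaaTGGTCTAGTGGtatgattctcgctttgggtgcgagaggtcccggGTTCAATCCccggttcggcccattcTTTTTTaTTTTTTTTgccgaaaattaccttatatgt

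The next loci are printed in the same way because they show the range of the flanks. F57F5.t1 (isoleucine, V:12002126-12002300, plus strand) and F44A2.t1 (alanine, V:9318152-9318313, plus strand) are genes of unique sequence among the strongest peaks. W09G10.t3 (threonine, II:3519046-3519207, minus strand) overlapped an IDR peak and has no run of 4 T after the gene. F49C5.t4 (lysine, II:12541648-12541810, minus strand) has a run of 9 T after the gene and was among the strongest autosomal tRNA peaks outside the IDR list.
F57F5.t1: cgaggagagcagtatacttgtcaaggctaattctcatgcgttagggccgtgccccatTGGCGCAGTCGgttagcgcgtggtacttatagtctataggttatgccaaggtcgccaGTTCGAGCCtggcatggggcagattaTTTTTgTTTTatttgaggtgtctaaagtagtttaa
F44A2.t1: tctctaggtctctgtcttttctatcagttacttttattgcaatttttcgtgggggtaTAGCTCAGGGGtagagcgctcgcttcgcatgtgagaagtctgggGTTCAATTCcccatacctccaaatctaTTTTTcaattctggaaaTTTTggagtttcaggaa
W09G10.t3: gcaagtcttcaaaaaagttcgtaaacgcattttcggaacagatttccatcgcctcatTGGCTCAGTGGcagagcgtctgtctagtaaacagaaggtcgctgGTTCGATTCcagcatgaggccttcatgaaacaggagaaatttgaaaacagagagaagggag
F49C5.t4: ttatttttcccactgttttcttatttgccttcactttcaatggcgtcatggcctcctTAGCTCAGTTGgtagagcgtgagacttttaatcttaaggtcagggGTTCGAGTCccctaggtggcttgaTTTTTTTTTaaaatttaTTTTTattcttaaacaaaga

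About 1 autosomal tRNA peak in 3 overlapped the IDR list. Of the 283, 97 (34.3%, 95% Wilson interval 29% to 40%) overlapped an IDR peak, and 186 did not. Among all 20360 peaks of the relaxed list the share was 3.32%. The 97 comprised 83 that were IDR peaks themselves (29.3%, against 2.71% of the relaxed list) and 14 that only touched one. All 283 peaks were 416 bp wide, and 250 had 1 tRNA gene start in the window while 33 had 2. Counted by gene, 99 of 336 annotated autosomal tRNA genes (29.5%, 24.8 to 34.5) had an IDR-overlapping summit, and 277 (82.4%) had any summit of the relaxed list.

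The same was seen in each replicate's own list, although these lists were input for the IDR list. The 552 strongest peaks of replicate 1 were overlapped by 77 of the 283 (27.2%, against 3.35% of the relaxed list), and those of replicate 2 by 93 (32.9%, against 3.31%). Both sets were overlapped by 58 peaks, of which 56 also overlapped an IDR peak. Another 20 peaks reached the strongest set of either replicate and did not overlap an IDR peak, and 5 IDR-overlapping peaks reached neither. A peak of the relaxed list of replicate 1 lay at 263 of the members and of replicate 2 at 266. Over the 247 members present in both, the log2 signals of the replicates had a Pearson r of 0.541 and a Spearman rho of 0.529. Within the 97 IDR-overlapping peaks r was 0.362 and within the 150 others it was 0.144. These coefficients are across peaks that come from the same 2 libraries and describe the lists only.

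**Figure D1:**
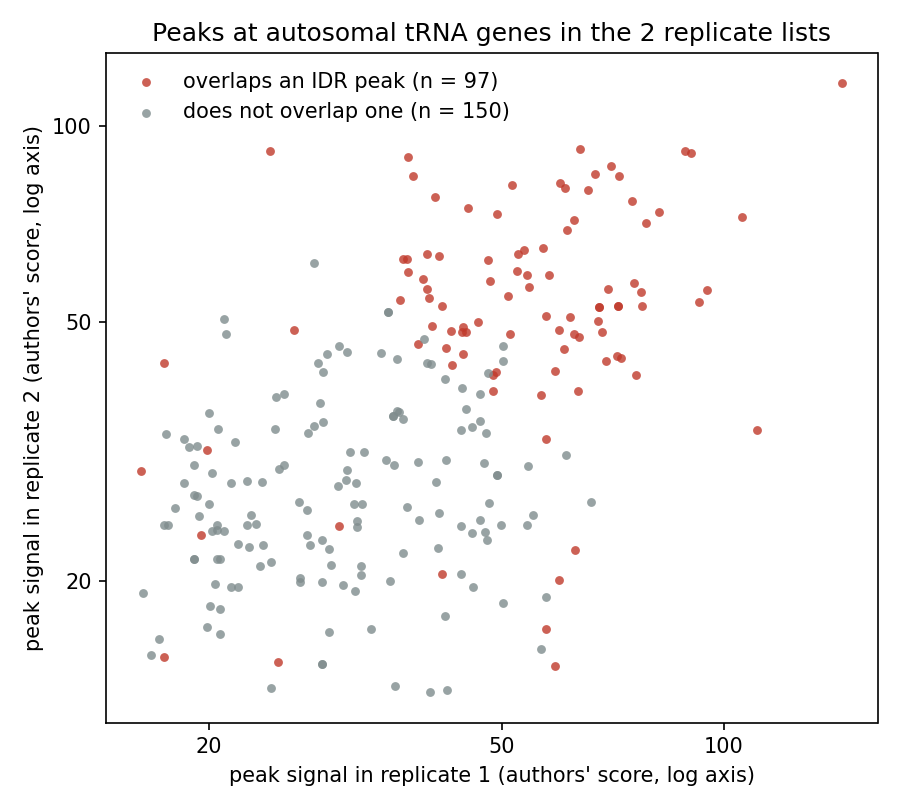
Signal of each autosomal tRNA peak in replicate 1 (x axis) and replicate 2 (y axis), both as the authors' score on log axes. Points are the 97 peaks that overlap an IDR peak (red) and the 150 others found in both lists (grey). The strongest peak, at T23F1.t2, is at the upper right with 144.8 and 116.3, and some red points lie among the grey ones.

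IDR-overlapping peaks had a median pooled signal of 107.0 (lowest 23.5, highest 255.3), and the others a median of 50.6 (lowest 23.5, highest 88.4). In replicate 1 the medians were 56.5 at IDR-overlapping peaks and 29.0 at the others, and in replicate 2 they were 53.0 at IDR-overlapping peaks and 26.3 at the others. The ranges overlapped in each replicate. Both replicates entered the IDR list, so higher replicate signals at IDR-overlapping peaks follow in part from the selection. Around the limit of the list, the weakest member that was an IDR peak, at the valine gene F58D5.t1, had a signal of 89.5, and the strongest member that overlapped none, at the threonine gene F14F7.t1, had 88.4.

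The strongest autosomal peak covered the proline genes T23F1.t2 and T23F1.t1 (V:15464998-15465413), with a pooled signal of 255.3, 144.8 in replicate 1 and 116.3 in replicate 2. Next came peaks at the threonine gene F52C9.t1 (III:5305714-5306129), with 181.5 pooled and 90.3 and 90.9 in replicates 1 and 2, and at the methionine gene T15B12.t1 (III:5294856-5295271), with 181.3 pooled and 88.6 and 91.7. These 2 genes lie 10855 bp apart in introns of F52C9.5 and T15B12.1. The peak at the isoleucine gene T09B4.t1 (I:6164086-6164501) had 171.1 pooled, with 105.7 in replicate 1 and 72.6 in replicate 2. At F57F5.t1 the pooled signal was 162.1, with 70.2 and 86.7 in replicates 1 and 2. The peak at W09G10.t3, which also covered W09G10.t2, had 157.1 pooled, with 110.7 in replicate 1 and 34.1 at the nearest summit of replicate 2. It overlapped one of the 552 strongest peaks of each replicate.

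The other peaks among the 12 strongest were at the tryptophan gene B0523.t1 (158.8) in an intron of fli-1, the homolog of the Drosophila flightless gene, the cysteine gene C37A2.t1 (157.6) in an intron of cye-1, the cyclin E gene, and the alanine genes Y7A9D.t2 (155.4) and F44A2.t1 (148.9). They also included the lysine gene B0350.t1 (152.8) and the leucine gene B0244.t2 (148.6). The 12 span 9 isotypes and all 5 autosomes. The 4 strongest peaks outside the IDR list were at F14F7.t1 (88.4), the serine gene K07A1.t1 (87.1), F49C5.t4 (87.0) and the aspartate gene K02D7.t1 (86.8). The weakest peaks that overlapped the list, at the cysteine gene T28C12.t1 (26.5) and the lysine gene M01E5.t1 (23.5), each lay beside a stronger summit at the same gene, of 118.8 and 96.3, which was the IDR peak.

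Autosomal tRNA peaks were in the IDR list less often than tRNA peaks on the X chromosome. The share was 97 of 283 (34.3%) on the autosomes and 124 of 223 (55.6%, 49% to 62%) on X, a difference of -21.3 percentage points (Fisher's exact test with odds ratio 0.417, exact interval 0.286 to 0.607, and p = 1.68e-06, or 5.38e-05 after Benjamini-Hochberg adjustment over 32 tests). The median pooled signal was 63.6 at autosomal and 86.6 at X-linked tRNA peaks. In replicate 1 the medians were 36.7 on the autosomes and 49.2 on X, and in replicate 2 they were 32.1 on the autosomes and 44.4 on X. Annotated genes with any relaxed summit were 277 of 336 (82.4%) on the autosomes and 232 of 276 (84.1%) on X, and those with an IDR-overlapping summit were 29.5% on the autosomes and 46.0% on X. This was the only one of the 32 tests past an adjusted p of 0.05, and the only one with an unadjusted p under 0.05. X is a single chromosome, so linkage cannot be told apart from whatever else differs between X and the autosomes.

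The difference was also seen among genes of the same sequence and among the isotypes. In the 38 families of identical genes with peaks on both, a comparison added after the data were seen, the share was 72 of 198 autosomal (36.4%) and 89 of 154 X-linked peaks (57.8%; Fisher's exact test, adjusted p = 0.00148). By isotype the autosomal share was lower in 16 of 20 and higher in 4, which were cysteine, lysine, methionine and tryptophan. For asparagine 1 of 11 autosomal and 5 of 5 X-linked peaks overlapped an IDR peak, and for alanine 10 of 18 autosomal and 12 of 12 X-linked peaks did. Several features moved with linkage: 28.6% of autosomal and 39.9% of X-linked peaks were at clustered genes, 57.2% of autosomal and 32.7% of X-linked peaks lay in host introns, and the 50 bases upstream had a median AT content of 54% on the autosomes and 58% on X. At lone genes the shares were 31.2% autosomal (63 of 202) and 62.7% X-linked (84 of 134), and at clustered genes they were 42.0% autosomal (34 of 81) and 44.9% X-linked (40 of 89), where the call was lost (Fisher's exact test, adjusted p = 1). The shares of IDR-overlapping peaks differed as much in host introns (34.0% autosomal, 56.2% X-linked) as outside them (34.7% autosomal, 55.3% X-linked). The part of upstream AT content in the difference was not tested. Away from tRNA genes the autosomal share was also lower: 343 of 16791 autosomal (2.04%) and 89 of 3040 X-linked peaks (2.93%) overlapped an IDR peak (Fisher's exact test with odds ratio 0.691, interval 0.544 to 0.886, and p = 0.00292, added after the data were seen). Whether this difference was smaller than that at tRNA genes was not tested.

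Within the autosomes, no tested feature of location passed the threshold. Arms were the outer 25% of a chromosome at each end. Of the arm peaks 48 of 143 (33.6%) overlapped an IDR peak, and of the centre peaks 49 of 140 (35.0%; Fisher's exact test with odds ratio 0.939, interval 0.557 to 1.58, and adjusted p = 1). Of peaks in introns of protein-coding host genes 55 of 162 (34.0%) did, and of the others 42 of 121 (34.7%; Fisher's exact test with odds ratio 0.967, interval 0.572 to 1.64, and adjusted p = 1). With the tRNA gene on the strand of its host the count was 33 of 98 (33.7%), and on the opposite strand 22 of 64 (34.4%; Fisher's exact test with odds ratio 0.969, interval 0.475 to 2.00, and adjusted p = 1). These intervals leave room for moderate differences in either direction.

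**Figure D2:**
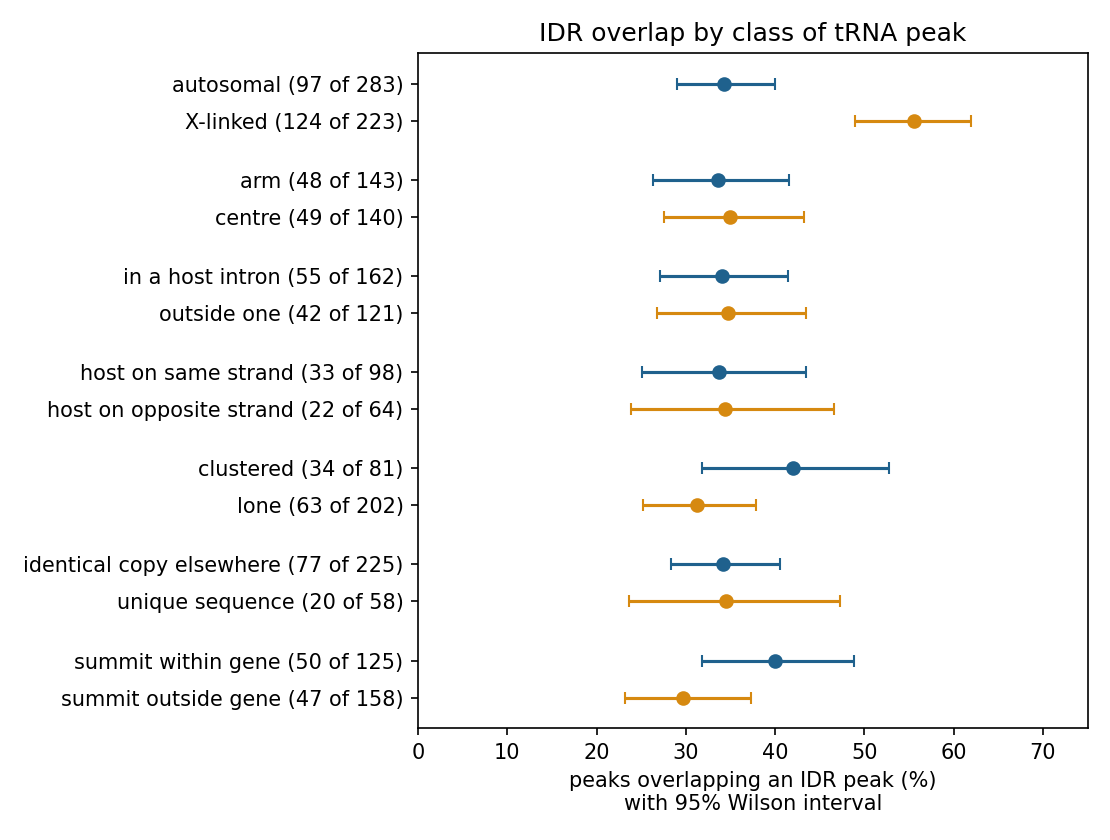
Share of tRNA peaks that overlap an IDR peak, in percent with 95% Wilson intervals, for pairs of classes given with their counts. Only the first pair, autosomal and X-linked, is separated, at 34.3% and 55.6%. All other pairs split the autosomal peaks, and their intervals overlap.

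By chromosome, the share was highest on IV, where 27 of 61 peaks (44.3%) overlapped an IDR peak, against 18 of 57 on I, 15 of 45 on II, 19 of 60 on III and 18 of 60 on V. None of the 5 passed the test against the other autosomes (lowest Fisher's exact p = 0.0691, for IV). Arms and centres differed in opposite directions on different chromosomes. On V, 4 of 23 arm peaks (17.4%) and 14 of 37 centre peaks (37.8%) overlapped an IDR peak, and on III 5 of 26 arm peaks (19.2%) and 14 of 34 centre peaks (41.2%) did. On I the counts were 11 of 29 arm peaks (37.9%) and 7 of 28 centre peaks (25%). These differences between chromosomes were not tested.

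The host genes were many and mostly held 1 peak each. The 162 intronic peaks lay in 127 host genes, of which 98 held 1 peak, and 44 host genes held a peak that overlapped an IDR peak. The gene srv-16 on chromosome IV, a member of a chemoreceptor family, held 4 peaks, all of which overlapped an IDR peak: 2 at the aspartate gene Y105C5B.t1 (143.7 and 65.5) and 1 each at the glutamate genes Y105C5B.t3 (104.0) and Y105C5B.t2 (34.6). In pxn-1, a peroxidasin gene on chromosome V, 2 of 3 peaks overlapped one. In F14B4.1, F22B7.9 and Y43F4A.1, 0 of 3 did in each. The 3 peaks of F22B7.9 lay at the phenylalanine genes F22B7.t3 (63.4) and F22B7.t4 (42.8 and 26.4). The hosts named here were picked after their counts were seen.

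Peaks at clustered tRNA genes had a higher share, which did not pass the test over peaks and depended on how clusters and units were defined. A gene was called clustered when another tRNA gene started within 1000 bp. Of peaks at clustered genes 34 of 81 (42.0%) overlapped an IDR peak, and of peaks at lone genes 63 of 202 (31.2%; Fisher's exact test with odds ratio 1.59, interval 0.902 to 2.81, and p = 0.0968, adjusted p = 0.478). Counted by gene, 41 of 99 clustered genes and 58 of 237 lone genes had an IDR-overlapping summit, a difference of 16.9 points that passed (adjusted p = 0.0412, Fisher's exact test). Neighbours share peaks, so 1 peak can count for both genes, which the count by gene does not allow for. With 1 peak per locus the counts were 23 of 44 clustered and 58 of 186 lone (21.1 points, adjusted p = 0.2, Fisher's exact test). With clusters defined by a start within 5000 bp they were 40 of 116 clustered and 57 of 167 lone, a difference of 0.351 points. For the 276 strongest of the IDR peaks the difference between peaks was -2.75 points.

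The higher share was found at the closest pairs. With another tRNA start under 250 bp away, 18 of 29 peaks (62.1%, 44.0 to 77.3) overlapped an IDR peak, with one 250 to 500 bp away 2 of 14, with one 500 to 1000 bp away 14 of 38 (36.8%), with one 1000 to 5000 bp away 6 of 35 (17.1%), with one 5000 to 50000 bp away 28 of 67 (41.8%) and beyond that 29 of 100 (29.0%). The share did not fall steadily with distance, and the bin of 14 peaks is thin. Peaks with 2 tRNA starts in the window overlapped an IDR peak in 19 of 33 cases (57.6%) and those with 1 start in 78 of 250 (31.2%; Fisher's exact test with odds ratio 2.98, interval 1.34 to 6.79, and adjusted p = 0.0186 over 4 calls, added after the data were seen). For peaks that were IDR peaks themselves the counts were 13 of 33 with 2 starts and 70 of 250 with 1 (adjusted p = 0.221, Fisher's exact test), so the call was lost. For the strongest peaks of replicate 2 it held, at 18 of 33 with 2 starts and 75 of 250 with 1 (adjusted p = 0.0186, Fisher's exact test), and for those of replicate 1, at 14 of 33 with 2 starts and 63 of 250 with 1, it was lost (adjusted p = 0.0784, Fisher's exact test). Of the 81 peaks at clustered genes, 57 had a nearest tRNA gene of the same isotype. The share was 14 of 26 where the neighbour was on the same strand, 16 of 39 in divergent pairs and 4 of 16 in convergent pairs, which were not tested.

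Isotypes ranged widely in share, but none passed the test against the rest. The 16 isotypes with at least 10 peaks were tested, and 0 passed in Fisher's exact test at an adjusted or an unadjusted p of 0.05. Alanine had the highest share of these, with 10 of 18 peaks (55.6%, 33.7 to 75.4, adjusted p = 0.478 in Fisher's exact test). Arginine followed with 9 of 18, lysine with 10 of 23 (43.5%) and leucine with 7 of 17 (41.2%). Asparagine had the lowest, with 1 of 11 (9.09%, 1.62 to 37.7, adjusted p = 0.478 in Fisher's exact test), then serine with 3 of 15, tyrosine with 2 of 10 and valine with 4 of 18. Glycine, the isotype with the most peaks, had 9 of 24 (37.5%).

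Another 5 isotypes had too few peaks to be tested. Among them the cysteine peaks stood high, with 6 of 7, and the phenylalanine peaks low, with 0 of 9, which leaves an upper bound of 29.9% by the Wilson interval. The cysteine signals were 157.6 at C37A2.t1, 118.8 and 26.5 at T28C12.t1, 118.6 at F53F8.t1, 112.0 at K04A8.t3, 94.1 at F32B4.t1 and 86.7 at ZC412.t2, the last outside the IDR list. The phenylalanine signals ran from 26.4 at F22B7.t4 to 79.9 at Y39B6A.t9, all below the list's limit. Histidine had 1 of 7, tryptophan 2 of 6 and the single selenocysteine gene, K11H12.t1, 0 of 1. Peaks of 1 isotype often come from identical genes and are not independent of one another.

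**Figure D3:**
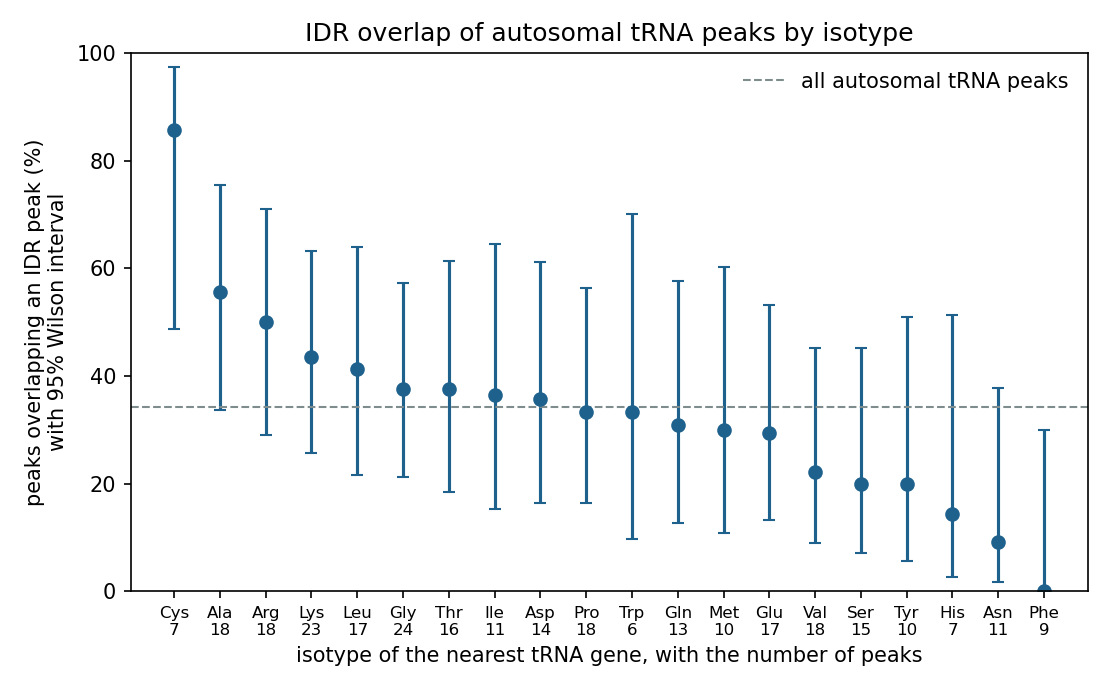
Share of autosomal tRNA peaks that overlap an IDR peak (y axis, percent, 95% Wilson intervals) for the 20 isotypes with more than 1 peak, ordered by share, with the number of peaks under each name. The dashed line is the share of all autosomal tRNA peaks, 34.3%. Cysteine (6 of 7) and phenylalanine (0 of 9) are at the ends, on few peaks.

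Genes with and without an identical copy elsewhere had nearly the same share. Of peaks at genes with an identical copy 77 of 225 (34.2%) overlapped an IDR peak, and of peaks at genes of unique sequence 20 of 58 (34.5%; Fisher's exact test with odds ratio 0.989, interval 0.520 to 1.92, and adjusted p = 1). How reads inside identical genes, which match every copy, were placed is not stated in the sources used here, so the summit at a single copy is uncertain. In the region 208 bp to either side of the gene a median of 89.2% of 36-mers were unique in the genome at IDR-overlapping peaks and 89.2% at the others. Within the gene the median was 0% for both.

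Identical genes were found on both sides of the limit in most families. Of 48 families of identical genes with an autosomal peak, 39 had at least 2 peaks. In 31 of these, some peaks overlapped an IDR peak and some did not, in 1 all did and in 7 none did. The 31 mixed families held 191 peaks, of which 73 overlapped an IDR peak. In the largest family, a glycine gene with 29 copies in the genome, 6 of 12 autosomal peaks did, and the signal ran from 147.3 at T04D3.t2 to 33.5 at Y51H4A.t5. In the lysine family of 25 copies 7 of 14 did, from 152.8 at B0350.t1 to 23.5 at M01E5.t1. The alanine family of 15 copies had 6 of 7, and a valine family of 12 copies had 1 of 10.

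The proline family printed above shows this spread in 9 peaks, of which 5 overlapped an IDR peak. T23F1.t2 had 255.3, F02H6.t1 had 109.8 (69.1 in replicate 1 and 43.5 in replicate 2) and W09D6.t2 had 106.2 (57.3 and 16.9). T22F3.t2 had 2 summits, with 91.6 and 37.5. Outside the list, T22F3.t1 had 72.1 (36.2 in replicate 1 and 36.4 in replicate 2), Y71H2AM.t1 had 2 summits with 59.4 and 47.8, and ZK970.t2 had 41.0 (38.6 and 24.8). A stronger peak of 75.6, also outside the list, held the start of ZK970.t2 in its window but was nearer to ZK970.t3. Peaks at the identical genes T22F3.t2 and T22F3.t1 thus fell on either side of the limit, and their windows also held another tRNA start. Each of the 4 printed loci has a run of at least 4 T starting within 6 bases of the gene's end. The longest run within 40 bases after the gene was 5 to 7 T at the 4 IDR-overlapping genes and 6 to 8 T at the 3 others.

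**Figure D4:**
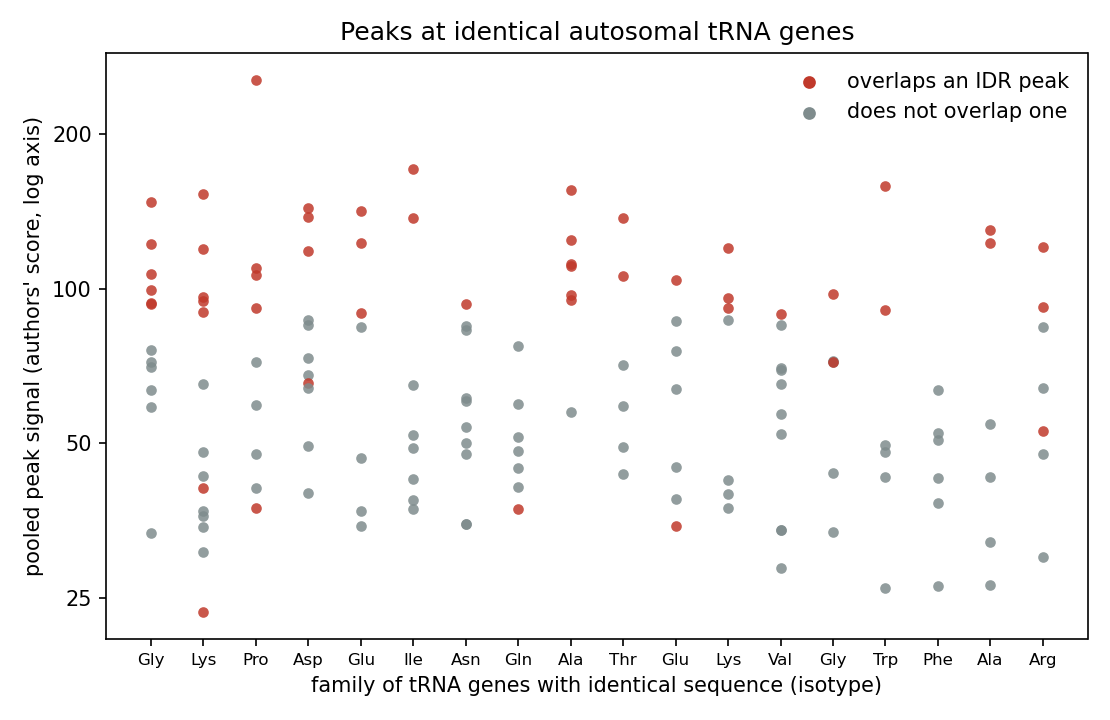
Pooled signal (authors' score, log axis) of peaks at autosomal tRNA genes in the families of identical genes with the most peaks, 1 column a family, named by isotype. Each point is a peak, red where it overlaps an IDR peak and grey where it does not. Red and grey points share a column in all but the phenylalanine family, and the top point is the 255.3 of T23F1.t2 in the proline column.

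The internal promoter elements were almost always present, so few peaks lacked one. The B box was searched as GATCAANNC, GATCGANNC, GTTCAANNC or GTTCGANNC and the A box by its consensus, on the strand of the gene. An A box was found in the gene at 277 of the 283 peaks, a B box at 280, and a run of 4 T within 40 bp after the gene at 281. Of all 336 annotated autosomal tRNA genes, 95.8% had an A box, 97.9% a B box and 98.8% a T run. Other autosomal peaks of the relaxed list, 16791 in number, were searched at their summits on 1 strand. An A box was found in 2.87% of 72-bp windows and a B box in 1.57%. A run of 4 T was found in 34.6% of 40-bp windows. The contrast with these other peaks follows from the rule, which chose peaks at tRNA genes. Peaks at genes with an A box overlapped an IDR peak in 97 of 277 cases (35.0%) and those without in 0 of 6 (Wilson upper bound 39.0%). With a B box the count was 97 of 280 (34.6%) and without 0 of 3 (upper bound 56.1%). Neither passed in Fisher's exact test, and both upper bounds lie above the share of peaks with the box. Counted by gene, 99 of 322 genes with an A box and 0 of 14 without had an IDR-overlapping summit. This did not pass after adjustment (Fisher's exact test with p = 0.0129, adjusted p = 0.142). For the B box the counts by gene were 99 of 329 with and 0 of 7 without. The counts by gene include genes with no summit. With a T run it was 96 of 281 and without 1 of 2.

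The 6 and 3 peaks above, at genes that lacked a match to the A or the B box, are 9 different peaks. None of the 9 overlapped an IDR peak, against a share of 34.3% among all members. The 9 peaks are few, and as a pooled set they were not tested against the other members. Their highest signal was 67.7 at the glutamate gene Y69A2AR.t2 (38.5 in replicate 1 and 30.5 in replicate 2). The arginine gene Y102E9.t1 in an intron of wdr-4 had 54.6 (23.6 and 28.4), and the selenocysteine gene K11H12.t1 had 53.3 (31.8 and 24.2). The lowest was 28.2 at the histidine gene Y40H7A.t1. The sequences of 3 of these genes are printed to show what was missing, with matched boxes in capitals. They lie at IV:2639809-2639880 (minus strand), III:6726991-6727076 (minus strand) and IV:658181-658266 (plus strand).
Y69A2AR.t2: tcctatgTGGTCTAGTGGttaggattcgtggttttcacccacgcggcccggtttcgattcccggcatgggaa
Y102E9.t1: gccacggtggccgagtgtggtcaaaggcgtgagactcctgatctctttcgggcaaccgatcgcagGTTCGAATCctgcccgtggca
K11H12.t1: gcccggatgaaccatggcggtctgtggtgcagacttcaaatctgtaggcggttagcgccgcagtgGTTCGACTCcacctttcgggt

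The rule bounds the summit from 500 bp upstream to 200 bp downstream of the gene start, so positions are given as a description within that window, and 125 of 283 summits were within the gene. The median summit position was 22.0 bp downstream of the gene start at IDR-overlapping peaks and 14.5 bp at the others. The middle 50% of positions ran from -11.0 to 56.0 bp at IDR-overlapping peaks and from -24.8 to 63.0 bp at the others. Of summits within the gene 50 of 125 (40%) belonged to IDR-overlapping peaks, and of summits outside it 47 of 158 (29.7%; Fisher's exact test with odds ratio 1.57, interval 0.932 to 2.66, and p = 0.0783, adjusted p = 0.478). By side of the gene, the share was 29 of 105 upstream (27.6%) and 18 of 53 downstream (34.0%), and it was 5 of 29 (17.2%) for summits over 100 bp upstream. A protein-coding gene start in the same window was present at 37 peaks, of which 14 (37.8%) overlapped an IDR peak, against 83 of 246 (33.7%) without one (Fisher's exact test, adjusted p = 1).

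**Figure D5:**
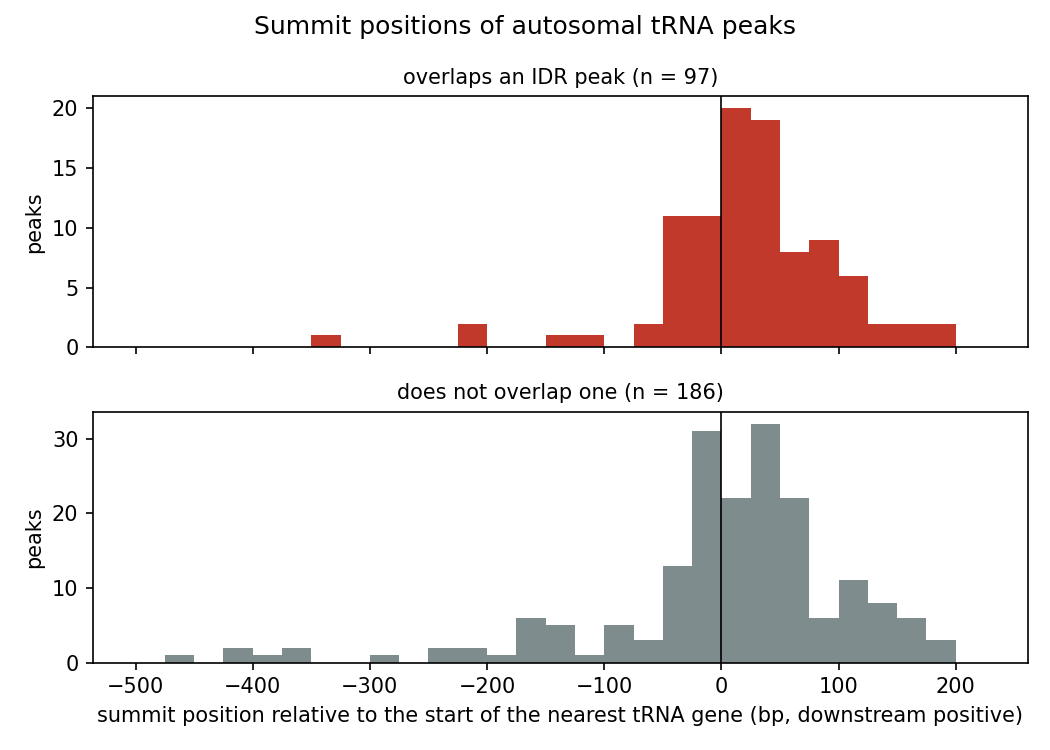
Summit position relative to the start of the nearest tRNA gene (x axis, bp, downstream positive) as counts of peaks per 25-bp bin, for the 97 autosomal tRNA peaks that overlap an IDR peak (upper panel) and the 186 that do not (lower panel). The window of the rule bounds both sets, whose medians are 22.0 and 14.5 bp.

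Other sequence features had like medians in both groups. The median AT content of the 50 bases upstream was 56% at IDR-overlapping peaks and 54% at the others, the median GC content of the gene was 58.3% in both, and the median longest T run within 40 bp after the gene was 6 bases in both. These medians were not tested.

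Autosomal tRNA genes with a summit differed from the 59 that had none in 3 of 7 properties compared. These comparisons were added after the data were seen and count genes. A summit counts for every gene whose window holds it, so a clustered gene can score through its neighbour's peak. Genes are thus not independent, and the difference for clustered genes may come in part from this way of counting. A match to both boxes was found in 268 of 277 genes with a summit (96.8%) and in 48 of 59 without (81.4%; Fisher's exact test with odds ratio 6.76, interval 2.41 to 19.6, and adjusted p = 0.000336). An identical copy elsewhere was found for 220 of 277 genes with a summit (79.4%) and 30 of 59 without (50.8%; Fisher's exact test with odds ratio 3.71, interval 1.98 to 6.99, and adjusted p = 0.000169). Clustered genes made up 91 of 277 with a summit (32.9%) and 8 of 59 without (13.6%; Fisher's exact test with odds ratio 3.11, interval 1.39 to 7.91, and adjusted p = 0.00621). Host introns held 155 of 277 genes with a summit (56.0%) and 34 of 59 without (57.6%; Fisher's exact test with odds ratio 0.934, interval 0.505 to 1.71, and adjusted p = 0.885), and arms held 141 of 277 with a summit (50.9%) and 25 of 59 without (42.4%; Fisher's exact test with odds ratio 1.41, interval 0.771 to 2.60, and adjusted p = 0.355). Upstream AT content had a median of 54% over the 283 peaks and of 62% at the genes without one.

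Annotated tRNA pseudogenes, which resemble tRNA genes in sequence, were seldom covered. Of autosomal tRNA genes 99 of 336 (29.5%) had an IDR-overlapping summit, and of 175 autosomal tRNA pseudogenes over 1000 bp from a tRNA gene 4 did (2.29%, 0.892 to 5.73; Fisher's exact test with odds ratio 17.8, interval 6.54 to 67.9, and p = 4.61e-16). Any relaxed summit was found at 277 of the 336 genes (82.4%) and at 44 of the pseudogenes (25.1%; Fisher's exact test with odds ratio 13.9, interval 8.78 to 22.3, and p = 3.29e-37). In the strongest peaks of replicate 1 alone 77 genes and 4 pseudogenes had a summit, and in those of replicate 2 there were 93 genes and 4 pseudogenes. This comparison was also added after the data were seen. Only the pseudogenes were limited by distance, and clustered genes can count a neighbour's summit, so the odds ratios may be too high. Of the 237 lone genes 58 (24.5%) had an IDR-overlapping summit, a share that was not tested against the pseudogenes.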

How the data were processed

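Peak lists in narrowPeak format from 2 biological replicates were used on build ce11. Per the submitters' file listing, 1 relaxed list per replicate and 1 on the pooled replicates were made as input for IDR, and the optimal IDR list came from them. Which aligner and caller were used, and in which version, is not given in the sources used here. The signal of a peak is a score the authors deposited, and its summit comes from the offset deposited with it. Lists on ce10 were not used here.

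A summit was assigned to tRNA gene starts from 500 bp upstream to 200 bp downstream. Gene starts came from the Ensembl annotation of WBcel235, and isotypes and pseudogenes from RefSeq records of the same assembly, which matched all 612 nuclear tRNA genes by gene ID. Peaks with 2 starts were described by the nearest gene. A replicate's signal is that of its overlapping peak with the nearest summit, so 1 replicate peak can stand for 2 members. Coordinates are 1-based.

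Fisher's exact test (two-sided, with conditional odds ratio and exact 95% interval) compared shares, with Benjamini-Hochberg adjustment over 32 tests, and 2 differences were compared by Zelen's exact test. The peak was the unit. Neighbouring peaks and peaks of identical genes are not independent, so these p-values measure counting error over peaks and not the spread between animals. Named peaks are the 12 strongest that overlap an IDR peak, the 4 strongest that do not, the 2 weakest that do, and the extremes of up to 3 mixed families; others were picked after their values were seen. The members and classes were chosen with earlier results of these data known. Alternatives were other lists, windows, units, arm and cluster limits, and subsets of the comparison with X. The functions were tested on simulated data. Python 3.11.15, numpy 2.4.6, scipy 1.17.1 and matplotlib 3.10.9 were used.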

Additional observations from a re-analysis of the deposited data

Results flagged for a closer look

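The difference between autosomal and X-linked tRNA peaks was larger at lone than at clustered tRNA genes. At lone genes 63 of 202 autosomal peaks (31.2%) and 84 of 134 X-linked peaks (62.7%) overlapped an IDR peak. At clustered genes 34 of 81 autosomal peaks (42.0%) and 40 of 89 X-linked peaks (44.9%) did. Zelen's exact test of equal odds ratios gave p = 0.0032, and 0.00641 after adjustment over the 2 splits tried, both added after the data were seen. The same exact test gave p = 0.00488 for peaks that were IDR peaks themselves, 0.0389 for the strongest peaks of replicate 1 and 9.72e-05 for those of replicate 2. The other split, by host intron, gave p = 1 in the same exact test. Among lone genes, with the nearest tRNA start 1000 to 5000 bp away, 6 of 35 autosomal and 31 of 48 X-linked peaks overlapped an IDR peak, at 5000 to 50000 bp 28 of 67 autosomal (41.8%) and 20 of 43 X-linked peaks (46.5%) did, and beyond 50000 bp 29 of 100 autosomal and 33 of 43 X-linked peaks did. The difference was thus not uniform among lone genes. Nor was it among clustered genes. Under 250 bp the counts were 18 of 29 autosomal and 23 of 29 X-linked peaks, and at 250 to 500 bp 2 of 14 and 10 of 35. At 500 to 1000 bp, where the autosomal share was higher, they were 14 of 38 and 7 of 25. The mix of distances also differed, with 14 of 81 autosomal and 35 of 89 X-linked peaks at 250 to 500 bp. What underlies the contrast between lone and clustered genes was not tested.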

How the results depend on the processing

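The comparison of autosomal with X-linked tRNA peaks kept its direction and passed under every alternative list, window and unit that was run. With the strongest peaks of 1 replicate alone the difference was -23.0 and -18.7 points. Among subsets chosen after the data were seen, the call was lost at clustered genes (-2.97 points, adjusted p = 1 in Fisher's exact test) and passed at lone genes (-31.5 points), in shared identical families (-21.4 points), and in and outside host introns (-22.2 and -20.6 points).

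Among the other comparisons in the family of 32 tests, clustered against lone genes with the gene as unit (16.9 points) was the only one that passed under any of these alternatives, and several small differences changed sign. Arm minus centre ran from -2.82 to 4.37 points with 1 replicate alone. Host intron minus elsewhere ran from -7.33 to -4.67 with 1 replicate and was 4.76 with a window of 100 bp on either side. Same minus opposite host strand ran from -5.80 to 3.64 with 1 replicate, and was 1.47 for IDR peaks themselves, 2.08 with 1000 bp upstream, 2.16 with 100 bp on either side and 0.844 with 1 peak per locus. Clustered minus lone ran from 3.39 to 14.5 with 1 replicate, and was 0.351 with clusters defined at 5000 bp, 21.1 with 1 peak per locus and -2.75 for the 276 strongest IDR peaks. Identical copy minus unique ran from -0.475 to 0.130 with 1 replicate, and was 0.023 for IDR peaks themselves and 6.78 with the gene as unit. T run minus none, with 2 peaks lacking one, ran from -23.0 to -17.3 with 1 replicate and was 4.52 with the gene as unit. The cause of these changes was not tested. With 1 replicate, summits within minus outside the gene ran from 4.28 to 8.49, A box minus none from 27.8 to 33.6, B box minus none from 27.5 to 33.2 and a protein-coding start minus none from 8.83 to 12.2 points. Isotypes and chromosomes gave 0 calls in Fisher's exact test under every alternative run. No paired analysis was possible because all samples form 1 group. The unknown depth enters no interval.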
